A study of Camponotus floridanus with 15 samples.

Results

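In the carpenter ant *Camponotus floridanus*, 28 genes had high transcript levels in instar 1 larvae and again in late pupae of the major caste. Their levels in instar 4 larvae and in minor workers were low. Of the 18979 rows in the deposited table, only the 18620 with a CFLOG ID could be chosen, and the 359 XLOC rows could not. The 28 genes were chosen by their levels in these same libraries. Libraries were first brought to 1 scale: over the 9990 genes with no 0 in any of the 15 libraries, each gene's value was set over its geometric mean, and the library was divided by the median of these ratios. The level of a gene in a group is the mean of log2(rescaled RPKM + 1). RPKM is a read number scaled by gene length and by library size. A member had levels in instar 1 larva and late pupa major within 1.5 of each other, both at least 1.5 above its levels in instar 4 larva and in minor, and no group 1.5 or more above the lower of these peaks. That lower value is called the lower peak below. The levels in the 4 groups that set peaks and troughs are therefore a description and carry no test. Embryo, early pupa, late pupa minor and male entered the choice only through the upper limit.

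Whole bodies were sequenced as poly(A) RNA in strand-specific libraries. There were 2 libraries each of embryo, larvae of instar 1 and of instar 4, early pupa, late pupa minor, late pupa major and minor, and 1 library of male. All groups came from animals kept at 25 °C and 50% humidity with 12 hours of light on Bhatkar-Whitcomb diet and 20% sugar water, and no genotype, strain or treatment is given that would separate them. Nothing in the labels says whether replicates came from separate colonies or pools, so the p-values below speak only of how far these libraries spread, which may be technical.

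Ants are holometabolous insects: the larva hatches from the egg, feeds and moults through its instars, and the pupa then rebuilds the body into that of the adult. Larvae and pupae form a new chitin-bearing cuticle under the old one around each moult, under the control of ecdysteroid hormones, and a late pupa holds an adult that is nearly formed. *C. floridanus* has small (minor) and large (major) workers. The table gives gene IDs without names, and 0 of its IDs matched the 14020 RefSeq genes of the species, so no function can be given for any member. In whole bodies, fewer cells of a type and less RNA per cell cannot be told apart.

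The steps of 1 read in the RPKM values gave back the read numbers, with between 2500000 (late pupa minor replicate 2) and 5950000 (minor replicate 1) reads on the 12935 genes whose length could be recovered. All 28 members had a length, and 3 reads, which is the floor used for a value of 0, stood for 0.0687 to 0.603 rescaled RPKM where a member was listed at 0. Members had 77 to 44469 reads per library in instar 1 larva and 22 to 12984 in late pupa major, against 0 to 306 in instar 4 larva and 0 to 256 in minor. The late pupa minor libraries stood apart from each other for the members, and results that rest on them are given with each one left out.

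CFLOG007208.2 was the most abundant member. In stage order it had 137 and 667 rescaled RPKM in embryo, 653 and 441 in larvae of instar 1, 2.17 and 7.63 in those of instar 4, 29.2 and 22.2 in early pupa, 8.21 and 95.2 in late pupa minor, 620 and 341 in late pupa major, 0.786 and 1.57 in minor and 1.03 in male. Its instar 1 larva and late pupa major libraries reached 341 rescaled RPKM or more, while no library of instar 4 larva, minor or male passed 7.63. Its margin, the lower peak minus the higher of the instar 4 larva and minor levels, was 6.46 on the log2 scale, and no member had a larger one.

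CFLOG001278.2 came next by margin (5.76). It had 52.4 and 36.6 rescaled RPKM in embryo, 75.9 and 55 in larvae of instar 1, 0 and 0.473 in those of instar 4, 3.55 and 3.46 in early pupa, 1.27 and 39.6 in late pupa minor, 58.6 and 127 in late pupa major, 0.0891 and 0.0888 in minor and 0.0965 in male. CFLOG007105.2 (margin 4.79) had 13.5 and 27.7 in embryo, 37.1 and 31.1 in larvae of instar 1, 0.165 and 0.377 in those of instar 4, 1.96 and 1.3 in early pupa, 2.02 and 27.5 in late pupa minor, 25.5 and 57.3 in late pupa major, 0.0237 and 0.0708 in minor and 0.0256 in male, all in rescaled RPKM. Both genes were near their floor in minor and male, and in both the late pupa minor libraries were far apart. Over the 15 libraries their levels had a Pearson r of 0.985, as a description of a pair chosen by the same rule.

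CFLOG009060.2 did not dip in early pupa. It had 22.9 and 13.4 rescaled RPKM in embryo, 58.6 and 104 in larvae of instar 1, 3.3 and 6.41 in those of instar 4, 94 and 73.3 in early pupa, 2.85 and 13.7 in late pupa minor, 130 and 33.7 in late pupa major, 3.67 and 6.72 in minor and 3.08 in male. Its early pupa libraries overlapped the range of its instar 1 larva and late pupa major libraries. Of the 28 members it alone had an embryo level 1.5 or more below the lower peak.

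CFLOG002226.2 had 13 and 31.4 rescaled RPKM in embryo, 30.9 and 31.5 in larvae of instar 1, 0.61 and 1.5 in those of instar 4, 10.7 and 7.33 in early pupa, 0.449 and 23.8 in late pupa minor, 36 and 71 in late pupa major, 1.54 and 3.71 in minor and 0.0407 in male. The replicates of instar 1 larva were within 0.03 of each other on the log2 scale, while those of late pupa minor differed by 4.1. CFLOG005959.1 had 9.92 and 30.9 rescaled RPKM in embryo, 32.8 and 28.5 in larvae of instar 1, 2.02 and 2.82 in those of instar 4, 19.9 and 14.2 in early pupa, 14.7 and 15.7 in late pupa minor, 35.2 and 35.3 in late pupa major, 0.377 and 0.215 in minor and 1.24 in male. Here the late pupa minor replicates were alike (0.09 apart), the smallest such difference among the members.

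CFLOG008800.2 was high in both castes of late pupa. It had 26.9 and 56.1 rescaled RPKM in embryo, 21.2 and 40.8 in larvae of instar 1, 1.35 and 1.14 in those of instar 4, 13.1 and 15.3 in early pupa, 41.6 and 65.7 in late pupa minor, 37.7 and 39.3 in late pupa major, 0.0649 and 0 in minor and 0 in male. It was 1 of 2 members, with CFLOG009900.1, whose mean level in late pupa major did not exceed that in late pupa minor. CFLOG009900.1, named here after its values were seen, also had the widest early pupa replicates, at 40.3 and 0.641 rescaled RPKM.

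The group means of the 18 members not named by the rule on named genes ran from 5.04 to 46.1 rescaled RPKM (median 12.5) in instar 1 larva and from 3.99 to 45.1 (median 17.3) in late pupa major, against 0.0501 to 5.34 (median 0.91) in instar 4 larva and 0.00688 to 4.02 (median 0.239) in minor. In all 28 members every instar 1 larva and late pupa major library lay above every instar 4 larva and minor library, which the choice of members favours. Summed, the 28 genes took 0.583% and 0.482% of all RPKM in the instar 1 larva libraries and 0.268% and 0.292% in those of late pupa major. Without CFLOG007208.2 the shares were 0.271% and 0.286% in instar 1 larva and 0.139% and 0.205% in late pupa major.

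**Figure D1:**
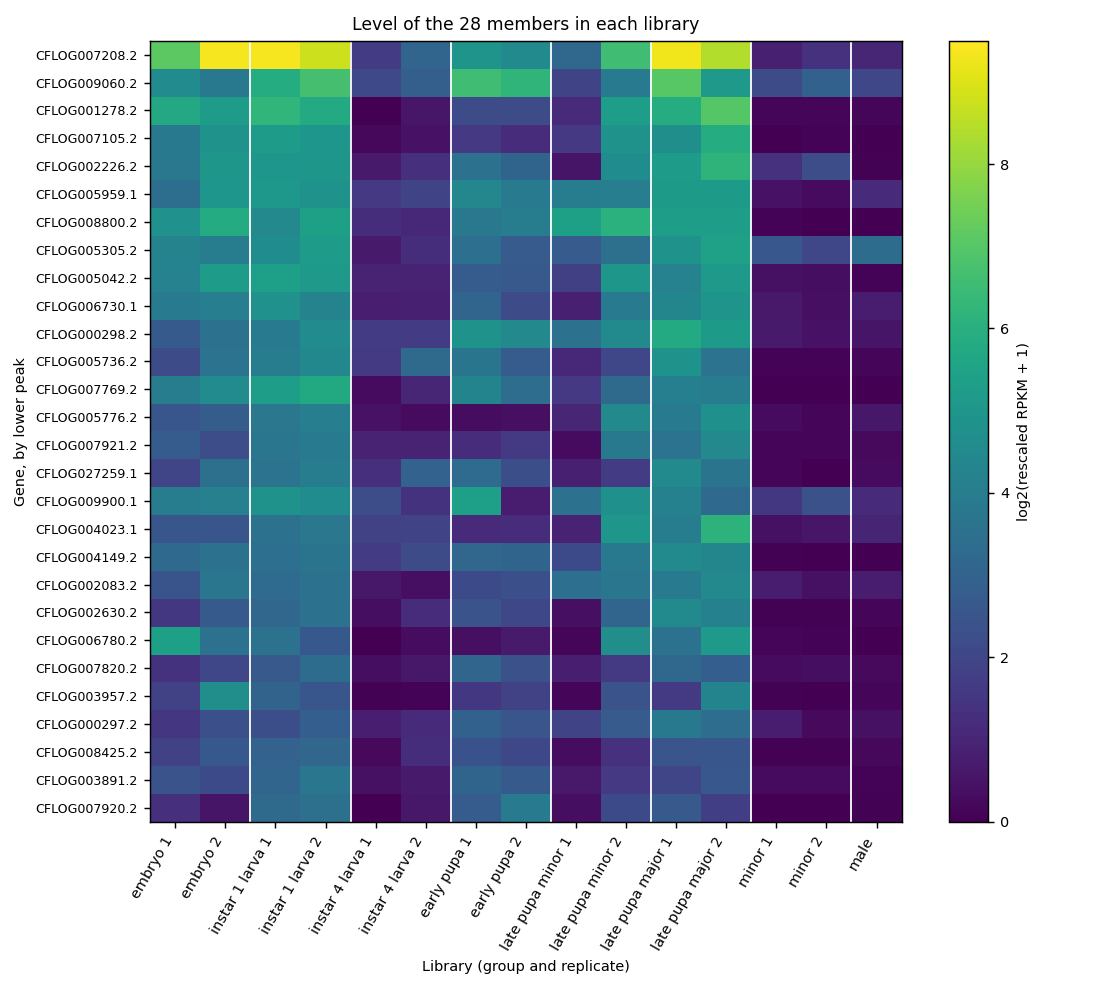
Level of each of the 28 members (rows, ordered by lower peak) in each of the 15 libraries (columns, in stage order), as log2(rescaled RPKM + 1) by colour. Instar 1 larva and late pupa major are bright and instar 4 larva, minor and male dark, embryo is close to instar 1 larva, and late pupa minor replicate 2 is brighter than replicate 1.

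Late pupa major was the higher of the 2 peaks in 19 of 28 members on the rescaled values, and instar 1 larva in the other 9. On deposited RPKM this order turned, with late pupa major higher in 2 members and instar 1 larva in 26. The median of late pupa major minus instar 1 larva was 0.2 on rescaled and -1.06 on deposited values. The group with the highest level of all was late pupa major in 16 members, instar 1 larva in 8, embryo in 2, early pupa in 1 and late pupa minor in 1, all after rescaling. On deposited RPKM instar 1 larva was highest in 24, embryo in 3 and late pupa major in 1, so which peak is higher rests on the scale. After rescaling, the level in late pupa major differed from that in instar 1 larva by between -1.49 (CFLOG007769.2) and 1.41 (CFLOG004023.1), which is the range that the choice allows.

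The name "twin peak" describes these genes incompletely, because embryo was high as well. The embryo level was within 1.5 of the lower peak in 27 of 28 members, with a median of 0.63 below it, and was above the instar 1 larva level in 3. Both embryo libraries lay above all instar 4 larva and minor libraries in 25 of 28. The count of 27 was 25 without embryo replicate 1 and 21 without embryo replicate 2. Early pupa and late pupa minor were intermediate. Early pupa was within 1.5 of the lower peak in 17 members and late pupa minor in 14, with medians of 1.05 and 1.56 below it.

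The male library was low as well. The male level was 1.5 or more below the lower peak in 28 of 28 members. The choice set only an upper limit for male, at 1.5 above the lower peak. It also required low levels in minor, so low levels in male are favoured wherever male and minor are alike. The median of male minus the lower peak was -3.54, beside -3.5 for minor. Male lay above both minor libraries in 15 members, below both in 8 and between or level with them in the rest. This order rests on few reads: the median member had 5 reads in male and 9 and 2 in minor. Fewer than 3 reads were found for 7 members in male and for 6 and 14 in minor. The highest male value was that of CFLOG005305.2, at 9.19 rescaled RPKM against 4.97 and 3.08 in minor, which was named here after its values were seen. There is 1 male library, so no spread between males is known.

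**Figure D2:**
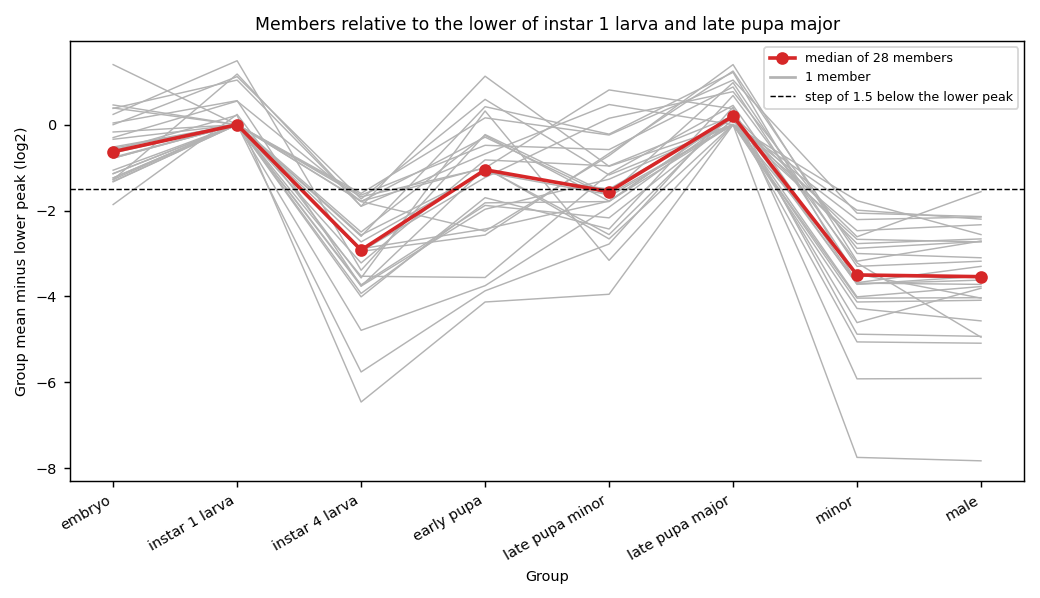
Group level minus the lower peak for each member (grey lines) and the median of the 28 members (red), in log2 units, over the 8 groups in stage order. The median is -0.63 in embryo, -2.92 in instar 4 larva, -1.05 in early pupa, -1.56 in late pupa minor, -3.5 in minor and -3.54 in male, and the dashed line marks 1.5 below the lower peak.

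The late pupa minor libraries disagreed about these genes in a single direction. All 28 members were higher in replicate 2 than in replicate 1, by a median of 1.75 and by 0.09 to 4.56 on the log2 scale. Among all 10619 tested genes (those with at least 1 rescaled RPKM in at least 2 libraries), 50.1% were higher in replicate 2 and the median difference was 0. Rescaling by medians favours such a balance over all genes in any group. A difference of at least 1 was found in 18 of 28 members (64.3%) and in 4.22% of all tested genes, and only 1.32% of these reached the member median of 1.75. The member with the widest gap was CFLOG006780.2, at 25.1 rescaled RPKM (339 reads) in replicate 2 and 0.108 (3 reads) in replicate 1. On the deposited scale, without rescaling, 26 of 28 members were higher in replicate 2, by a median of 1.28.

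Replicate 2 was also the shallower library, with 2500000 reads on genes of known length against 4130000 in replicate 1, and its scale factor was 0.58 against 0.771. The part of depth and scale in the difference was not tested. Late pupa minor replicate 1 was below both late pupa major libraries in 26 members and replicate 2 in 18. Set against the mean of late pupa major, the median member was 0.75 lower in replicate 2 and 2.84 lower in replicate 1. Late pupa major is a peak in the choice of members, so lower values in late pupa minor are favoured. In the 388 genes high in late pupa major but not in instar 1 larva, the medians were 0.55 and 1.16 lower. Over all tested genes the median was within 0.01 of zero for both, which the rescaling by medians favours in advance. The count of members with late pupa minor within 1.5 of the lower peak was 24 without replicate 1 and 7 without replicate 2, against 14 with both.

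In each of the other groups the median difference of the members was smaller, and members moved both ways. In instar 4 larva 24 of 28 members were higher in replicate 2 (85.7%, median 0.32), against 54.8% of all tested genes. In early pupa 8 of 28 were (28.6%, median -0.35), against 44.3%. In embryo 20 of 28 members were higher in replicate 2 (median 0.71, against 44.6% and a median of -0.03 over all tested genes). In late pupa major 16 were higher in replicate 2 (median 0.06), although the median size of the difference, regardless of direction, was 0.84 for members and 0.28 for all tested genes. In instar 1 larva that size was 0.44 for members and 0.22 for all, and in minor, where most members were near 0, it was 0.08 against 0.38.

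**Figure D3:**
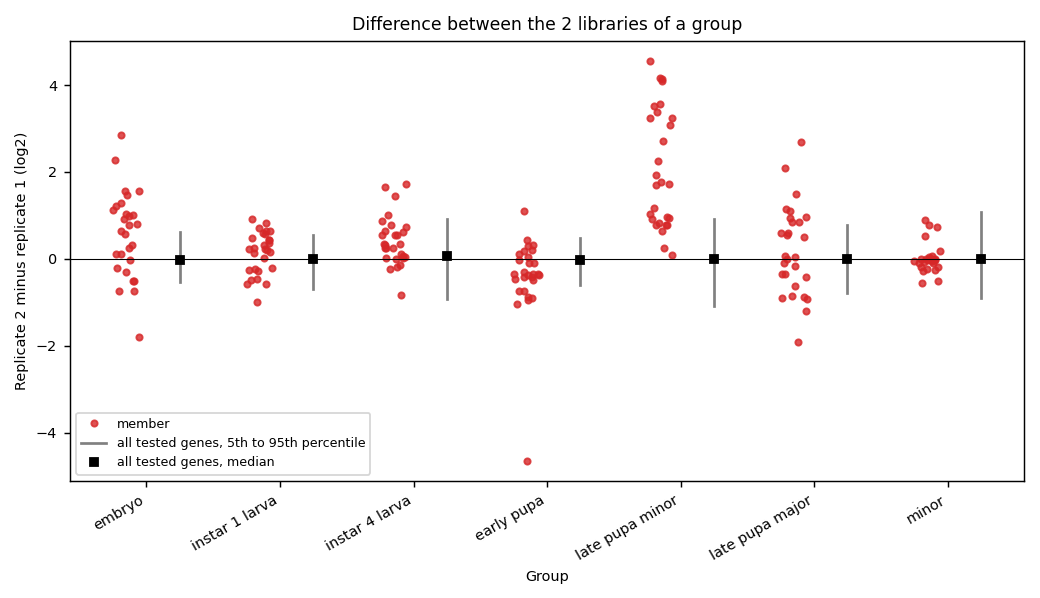
Difference between the libraries of each group (replicate 2 minus replicate 1, log2) for each member (red points), beside the 5th to 95th percentile (grey bar) and the median (black square) of the 10619 tested genes. In late pupa minor all 28 members lie above 0, with a median of 1.75, where the grey bar runs from -1.09 to 0.92.

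Tests were made in 3 comparisons between groups that were neither peak nor trough. They used limma on log2(rescaled RPKM + 1), fitted and adjusted by Benjamini-Hochberg over all 10619 genes. The rescaling by medians brings the median change over all tested genes near 0 in advance. Between late pupa minor and early pupa 3 members rose and 6 fell at an adjusted p under 0.05, where 14.2% of all tested genes rose and 12.0% fell. The median change of the members was -0.22, beside 0.02 over all tested genes, and its sign followed single libraries: leaving out late pupa minor replicate 1 made it 0.79, leaving out its replicate 2 made it -1.13, and leaving out early pupa replicate 1 made it 0.02. CFLOG005776.2 rose most, at 1.01 and 22 rescaled RPKM in late pupa minor against 0.234 and 0.32 in early pupa (log2 change 2.42 ± 0.76, SE, adjusted p = 0.0336 in limma). The late pupa minor libraries of this gene both lay above early pupa, but the change was 4.17 without replicate 1 and 0.66 without replicate 2, where the call was lost. With the change about as large, the call was also lost without early pupa replicate 1 (2.37) or replicate 2 (2.46), with no filter and in a fit of these 4 libraries alone. CFLOG008800.2 rose by 1.82 ± 0.37 (adjusted p = 0.00365 in limma), and its late pupa minor libraries at 41.6 and 65.7 were clear of early pupa at 13.1 and 15.3.

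CFLOG009060.2 fell most between these groups, to 2.85 and 13.7 rescaled RPKM in late pupa minor, against 94 and 73.3 in early pupa (log2 change -3.48 ± 0.66, adjusted p = 0.00237 in limma). The groups did not overlap, and the call held without either library of either group. CFLOG007920.2 fell by 2.09 on the log2 scale (SE 0.53, adjusted p = 0.0127 in limma), with 0.285 and 3.36 rescaled RPKM in late pupa minor against 5.88 and 13.8 in early pupa. Its call was lost without late pupa minor replicate 1 (-1.21) or early pupa replicate 2 (-1.54), and at the same change in a fit of these 4 libraries alone. The direction of the whole count followed single libraries: 10 members rose and 2 fell without late pupa minor replicate 1, and 1 rose and 11 fell without replicate 2. On the deposited scale 2 rose and 8 fell, where the median of all genes moved by -0.28.

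In early pupa 3 members were higher and 6 lower than in embryo at an adjusted p under 0.05, where 10.3% of all tested genes were higher and 12.0% lower. The 3 higher members are close to the share over all genes. The median change was -0.96, beside 0 over all tested genes, and it was -0.47 without early pupa replicate 2, -0.21 without embryo replicate 2 and -1.91 on deposited RPKM. CFLOG006780.2 fell most, to 0.301 and 0.594 rescaled RPKM in early pupa against 41.2 and 11.1 in embryo (log2 change -3.97 ± 1.07, adjusted p = 0.0183 in limma). CFLOG007208.2 fell to 29.2 and 22.2 in early pupa against 137 and 667 in embryo (-3.52 ± 0.92, adjusted p = 0.0163 in limma). In both genes the groups were apart, and the embryo libraries differed from each other more than the early pupa libraries did. Without early pupa replicate 1 the changes were about as large, at -3.83 for CFLOG006780.2 and -3.71 for CFLOG007208.2, and without early pupa replicate 2 they were -4.12 and -3.33, but the calls were lost, as they were with no filter. The call on CFLOG006780.2 was also lost without embryo replicate 1 (-3.07) and that on CFLOG007208.2 without embryo replicate 2 (-2.38).

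CFLOG007920.2 rose most, with 5.88 and 13.8 rescaled RPKM in early pupa against 1.47 and 0.465 in embryo (log2 change 2.41 ± 0.53, adjusted p = 0.00628 in limma). CFLOG009060.2 rose by 2.18 ± 0.66 (adjusted p = 0.0319 in limma), at 94 and 73.3 in early pupa against 22.9 and 13.4 in embryo. The call on CFLOG009060.2 was lost without any 1 of the 4 libraries (changes of 1.82 to 2.54), with no filter, and on deposited RPKM, where the change was 1.17 (adjusted p = 0.13 in limma). That on CFLOG007920.2 was lost without early pupa replicate 2 (1.86) or embryo replicate 2 (2.03). The count of 9 members rested on all 4 libraries. It was smaller without any 1 of them, as was the number of all tested genes called. On the deposited scale, where the median of all genes moved by -0.82, 1 member was higher in early pupa and 16 were lower. Of the 10807 genes tested on that scale, 423 were higher in early pupa and 4019 lower.

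The male library was lower than late pupa minor in 27 of 28 members, with a median change of -2.07, where that over all tested genes was 0. On deposited RPKM these medians were -1.4 and 0.82. Members were chosen as high in late pupa major and low in minor, so lower values in male than in late pupa minor are favoured. The shares over all tested genes below carry no such choice, so they are not a like-for-like background. The median of the members was -3.2 without late pupa minor replicate 1, -0.57 without replicate 2 and -3.27 with a pseudocount of 0.1. At an adjusted p under 0.05, 10 members were lower and 0 higher, where 8.25% of all tested genes were lower and 8.97% higher (limma, with 15 members at an unadjusted p under 0.05, all of them lower in male). CFLOG008800.2 was listed at 0 in male against 41.6 and 65.7 rescaled RPKM in late pupa minor, which is at least 255-fold lower against a floor of 3 reads in the male library (adjusted p = 3.85e-06 in limma). CFLOG007208.2 had 1.03 rescaled RPKM in male against 8.21 and 95.2 in late pupa minor (log2 change -3.87 ± 1.13, adjusted p = 0.0343 in limma), and this call was lost without late pupa minor replicate 2 (-2.18) and, at the same change, with no filter. The number of members called was larger without late pupa minor replicate 1 and smaller without replicate 2. The number called over all tested genes moved the same way. The spread of the lone male library was borrowed from the other groups, so these p-values compare 1 library with late pupa minor and do not speak for males in general. The comparisons share late pupa minor or early pupa, so their results are not independent.

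**Figure D4:**
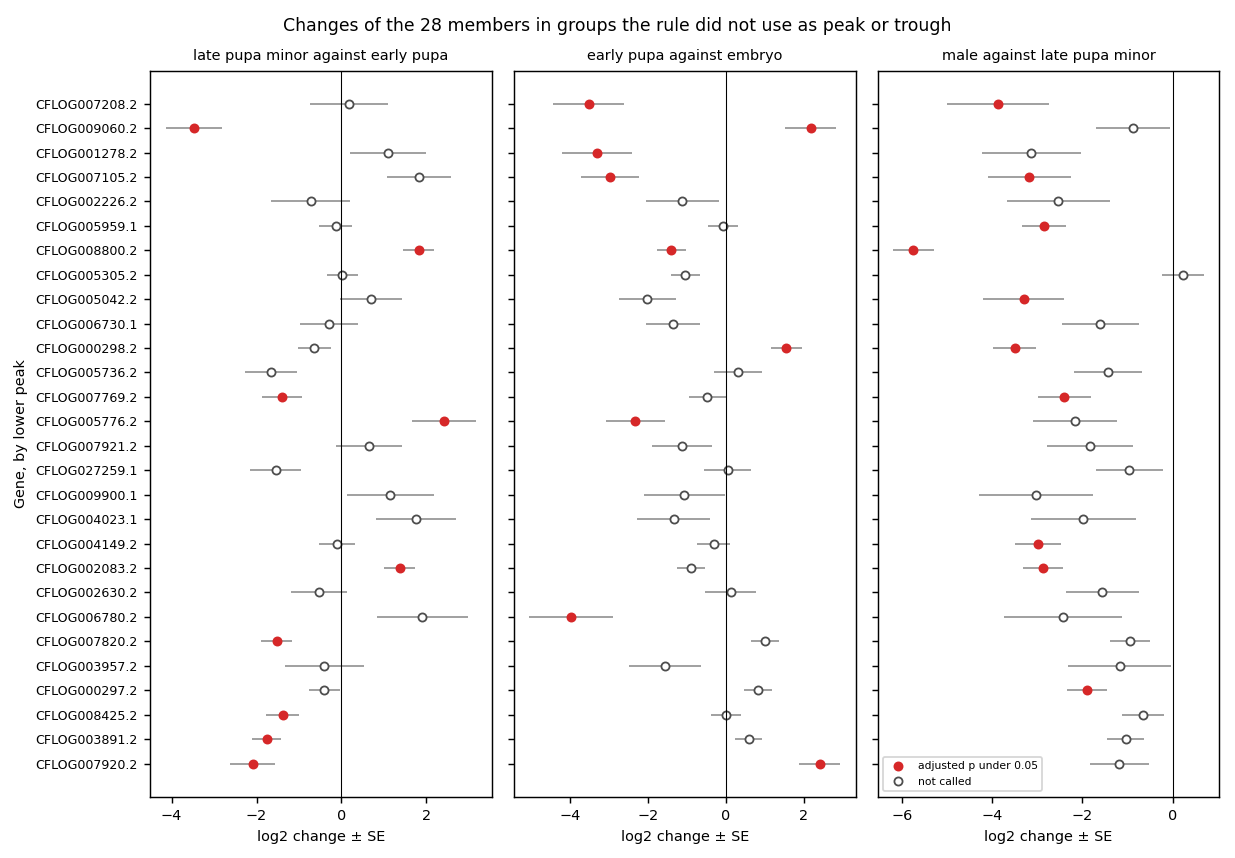
Log2 change with its SE for each member in the 3 tested comparisons, with red points at an adjusted p under 0.05 (limma over 10619 genes). Late pupa minor against early pupa and early pupa against embryo each have 3 red points above 0 and 6 below, and male against late pupa minor has 10, all below 0.

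The members varied in early pupa over a continuous range. In 17 members early pupa was within 1.5 of the lower peak, and in 11 it was lower than that. The 11 with a low early pupa differed more between the late pupa minor libraries, by a median of 3.52 (0.77 to 4.56), where the 17 differed by a median of 0.96 (0.09 to 2.72). They also differed between the late pupa major libraries, with 10 of 11 higher in replicate 2 by a median of 0.93, whereas 6 of the 17 were higher in replicate 2 and the median was -0.34. Across the 28 members, which share libraries and a rule, Pearson's r of the early pupa level minus the lower peak was -0.701 with the late pupa minor difference and -0.485 with the late pupa major difference. These are descriptions, with no test, and the late pupa minor differences of the 11 and the 17 overlap. The log2(value + 1) scale understates differences of low genes, and all members with a lower peak of 2.99 or less were among the 17. CFLOG003957.2 of the 17 had 0.124 and 4.4 rescaled RPKM in late pupa minor, a difference of 2.26. CFLOG007208.2 of the 11 had 8.21 and 95.2, a smaller ratio but a difference of 3.38. The part of the scale in this contrast was not tested.

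The member of the 11 that was lower in late pupa major replicate 2 was CFLOG007208.2, at 341 against 620 rescaled RPKM in replicate 1. Examples of the 11 are CFLOG005776.2, whose early pupa libraries at 0.234 and 0.32 rescaled RPKM were as low as instar 4 larva at 0.388 and 0.218, and CFLOG006780.2, at 0.301 and 0.594 in early pupa beside 0 and 0.236 in instar 4 larva. Examples of the 17 are CFLOG009060.2 and CFLOG007920.2, whose early pupa means (83.6 ± 14.7 and 9.85 ± 5.61 rescaled RPKM, SD, n = 2 each) were close to those of instar 1 larva (81.3 ± 32.2 and 9.55 ± 1.28).

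**Figure D5:**
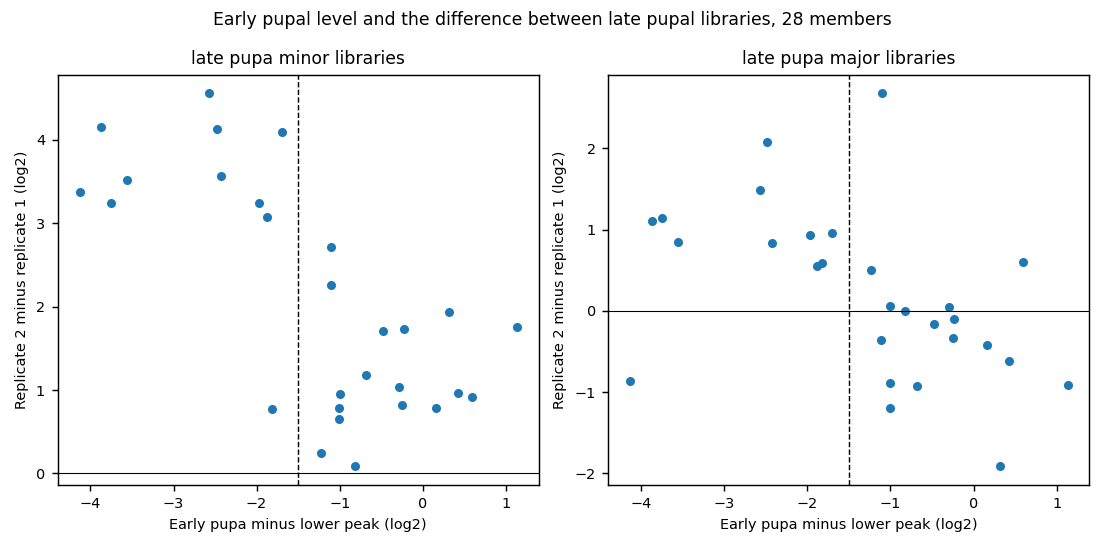
Early pupa level minus the lower peak (x axis, log2) against the difference between the libraries of late pupa minor (left) and late pupa major (right; replicate 2 minus replicate 1, log2), with 1 point per member. Members left of the dashed line at -1.5 reach differences of up to 4.56 in late pupa minor, while those to its right stay at 2.72 or less. The log2(rescaled RPKM + 1) scale understates both axes for low members.

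In late pupa major 439 of the 18620 genes with a CFLOG ID (2.36%) lay at least 1.5 above both instar 4 larva and minor, and in instar 1 larva 112 (0.602%) did. Both held for 51 genes, which is 45.5% of the instar 1 larva genes and 11.6% of the late pupa genes. The 2 conditions share instar 4 larva and minor, so some overlap follows from the low levels there. Of the 51 genes 30 had peaks within 1.5 of each other, and the upper limit removed 2 of these. CFLOG008799.1 was removed for an early pupa level of 13.41, against a lower peak of 7.09, and CFLOG006781.1 for an embryo level of 6.49, against 4.16.

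The members were set beside the 388 genes high in late pupa major but not in instar 1 larva, and the 61 high in instar 1 larva but not in late pupa major. The peak was the lower peak for members and the single peak of each other set, and only members had an upper limit. The shares are therefore not like for like. A group was counted where its level was above the peak or less than 1.5 below it. Embryo was counted in 27 of 28 members (96.4%), in 20.4% of the late pupa genes and in 85.2% of the instar 1 larva genes. In the instar 1 larva genes the median embryo level was 1.03 above the peak. Male was counted in 0 members, 19.3% of the late pupa genes and 13.1% of the instar 1 larva genes. Late pupa minor was counted in 50% of the members and 82.2% of the late pupa genes. Late pupa minor replicate 2 was higher than replicate 1 in 28 of 28 members, in 74% of the late pupa genes (median 0.69) and in 32.8% of the instar 1 larva genes (median 0). None of these differences was tested, since all 3 sets were cut from the same values.

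The members shared little that the files record beyond their levels. Their lengths ran from 249 to 4098 nt with a median of 1479 nt, against 1140 nt over the 8941 tested CFLOG genes with a length. Of the 28 lengths 23 were multiples of 3, a smaller share than the 92.2% of lengths recovered over all CFLOG genes. Most lengths in both were multiples of 3, so they may hold mostly coding sequence. IDs whose suffix was 2 made up 82.1% of the members and 61.6% of tested CFLOG genes, and what the suffix stands for is not stated. Members with consecutive numbers formed 2 pairs, CFLOG000297.2 with CFLOG000298.2 and CFLOG007920.2 with CFLOG007921.2. The first pair had a Pearson r of 0.986 over the 15 libraries and the second one of 0.661, as a description of genes chosen by the same rule. Over all tested CFLOG genes the median r was 0.159 for the 6942 pairs with consecutive numbers and -0.00694 for the 5679 pairs that were 100 numbers apart. Whether the numbers follow gene order along the genome is not stated.

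The most similar members were CFLOG005736.2 and CFLOG027259.1, with a Pearson r of 0.994. CFLOG005736.2 had 27.5 and 11.4 rescaled RPKM in late pupa major, and CFLOG027259.1 had 22.1 and 11.5. Whether these models overlap or are near copies could not be checked without sequence, so they may not be 2 separate measurements. Among all pairs of members r ran from 0.384 to 0.994 with a median of 0.807, and CFLOG009900.1 followed the mean of the others least (0.711). High values are favoured by the rule.

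At the edge of the margin of 1.5, CFLOG000297.2 (1.593) and CFLOG004149.2 (1.636) were just inside, and CFLOG006784.1 (1.486) and CFLOG007811.2 (1.468) just outside. CFLOG000297.2 had levels of 2.57 in instar 1 larva and 3.61 in late pupa major, against 0.97 in instar 4 larva and 0.51 in minor. CFLOG006784.1 had 2.61 and 1.63, against 0.14 and 0.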

How the data were processed

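Poly(A) RNA of whole ants was sequenced in 15 dUTP libraries, as the labels' protocols state. The submitters' processing notes list STAR 2.5.0b and DESeq2 with no role for either. Build, annotation and counting: not given in the sources used here. RPKM values made by the authors fill the deposited table for 18979 rows (18620 CFLOG and 359 XLOC), and 0 columns were left without a sample. Minor columns are called worker in the second header line.

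The members and sets were chosen with earlier results of these data known. Named genes are the 6 members of highest lower peak, the 4 of largest margin, up to 2 that rose and 2 that fell per comparison and 2 on each side of the margin of 1.5.

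The smallest scale factor was 0.498, for instar 4 larva replicate 1, and the largest 2.332, for embryo replicate 1. Read numbers were recovered from the RPKM steps. Among values under 1000 reads, 100% were whole within 0.05, which follows from how lengths were found. Floors cover counting error only. No count test was run.

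Tests used limma 3.58.1 in R 4.3.3, with 1 term per group, all 15 libraries, eBayes with a trend, two-sided, and were tried on simulated data first. Genes with at least 1 rescaled RPKM in at least 2 libraries were kept, which all 28 members passed. Changes are on the log2(value + 1) scale, which understates low genes. Figures and tables used Python 3.11.15.

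Replicates within a group were not repeats of 1 library: the median chi-square per gene (1 degree of freedom) was 2.52 to 7.77. Alternatives were another scale, pseudocount, filter and fit, the replicate number as a block, each library left out, and other forms of the rule.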

Additional observations from a re-analysis of the deposited data

How the results depend on the processing

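The number of members was 28 as reported, 46 on deposited RPKM (19 of them among the 28), 62 with a pseudocount of 0.1 (27 among the 28) and 5 with late pupa minor in place of late pupa major (all 5 among the 28), and 22 to 32 with 1 library of a peak or trough group left out. The causes were not tested. Members called between late pupa minor and early pupa numbered 9, 3 in a fit of these 4 libraries alone and 4 to 12 with 1 library left out. Between early pupa and embryo the members called numbered 9, 17 on deposited RPKM, 4 with no filter and 14 in a fit of the 4 libraries alone. On deposited RPKM 423 of 10807 tested genes were higher in early pupa and 4019 lower. Fewer members were called with 1 library left out. Between male and late pupa minor they numbered 10, and 5 to 20 with 1 library left out. Where a library was left out, the lone sample of its group was assumed to vary like the other groups.

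The following alternatives were chosen after seeing the data. Members with late pupa major above instar 1 larva numbered 19, and 2 on deposited RPKM. Members with late pupa minor within 1.5 of the lower peak numbered 14, 8 on deposited RPKM and 7 to 24 with 1 library left out. With no late pupa group in the rule, 68 of the 112 genes high in instar 1 larva (60.7%) were higher in late pupa minor replicate 2 than in replicate 1, with a median difference of 0.29.

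With the replicate number as a block the counts were 9, 10 and 10, beside 9, 9 and 10 without it. No consistent pairing by replicate number was seen: over 21 pairs of groups, the correlation of the replicate differences ran from -0.358 to 0.232, and 4 were above 0.1. Such values cannot exclude that libraries of some groups share a batch or colony, which the labels do not state. No named change reversed under any alternative run. Depth limits the troughs, where 14 of 28 members had fewer than 3 reads in minor replicate 2.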
